A study of Mus musculus with 10 samples.

Results

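Transcription factors that set up and maintain the T lineage, 8 in number, were chosen by name: Gata3, Tcf7, Lef1, Ets1, Ets2, Runx1, Myb and Sox4. Probe sets carrying 1 of these 8 symbols were taken from the annotation of the MG_U74Av2 oligonucleotide array, which gave 11 probe sets for 7 of the 8 genes, out of 12488 probe sets and 8252 genes with a symbol of their own. Among the probe sets with 1 symbol in the annotation used here none carried Tcf7, so the expression of Tcf7 was not analysed. The 396 probe sets with several symbols were not searched for the factors. Total RNA was measured from 6 advanced thymic tumours of mice homozygous for IkL/L, a hypomorphic mutation of the zinc-finger factor Ikaros, from 2 preparations of unfractionated thymocytes of 3-week-old IkL/L mice and from 2 such preparations of 3-week-old wild-type mice, both on a C57Bl6 background. The tumours and the IkL/L thymocytes thus share the Ikaros mutation. The labels gave neither an age nor a strain background for the tumour-bearing mice, nor did they state whether each tumour was taken from its own mouse, so that the p-values cover the spread between samples only.

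These factors act in sequence during thymocyte development. TCF-1, the product of Tcf7, and GATA-3 act from the earliest thymic progenitors onwards, and both are needed for commitment to the T lineage. LEF-1 is the close relative of TCF-1, and both bind DNA through an HMG box and take up beta-catenin as a coactivator. Ets1 and Ets2 encode founding members of the ETS family, Runx1 encodes a DNA-binding subunit that works with the partner CBF-beta, Myb is needed for progenitors and for double-positive thymocytes, and Sox4 encodes an HMG-box factor of immature lymphocytes.

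Across the arrays no factor passed the test between any groups, and the clearest pattern was that of Ets2, whose intensity was below all 4 thymocyte arrays in all 6 tumours and was spread widely among them. Myb was also below all thymocyte arrays, by a much smaller step. Gata3 was above both wild-type arrays in all tumours. Over all tested probe sets, 10.8% had no overlap between tumours and all thymocyte arrays, and 17.9% had none between tumours and wild-type arrays. Only tumour 6 shared a chip lot with the thymocytes, and within that lot the log2 difference of Ets2 from wild-type thymocytes was -0.57. That of Gata3 was 0.17 with hybridization run as a block. Lef1, Runx1 and Sox4 overlapped between tumours and thymocytes. The promoters of the members with the lowest and the highest log2 difference from wild-type thymocytes, Ets2 and Gata3, are shown here so that their sequence can be set beside those values. Each window runs from 250 bases before to 50 bases after the start of the RefSeq transcript in GRCm38.p6, 5' to 3' on the strand of the gene. Capitals mark matches to the motifs named after the sequences.
Ets2: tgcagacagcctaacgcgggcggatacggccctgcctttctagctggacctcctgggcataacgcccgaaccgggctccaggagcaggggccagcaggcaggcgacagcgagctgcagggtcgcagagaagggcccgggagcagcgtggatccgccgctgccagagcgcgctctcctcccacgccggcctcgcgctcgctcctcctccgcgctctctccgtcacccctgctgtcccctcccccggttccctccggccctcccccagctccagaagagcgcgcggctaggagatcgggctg
Gata3: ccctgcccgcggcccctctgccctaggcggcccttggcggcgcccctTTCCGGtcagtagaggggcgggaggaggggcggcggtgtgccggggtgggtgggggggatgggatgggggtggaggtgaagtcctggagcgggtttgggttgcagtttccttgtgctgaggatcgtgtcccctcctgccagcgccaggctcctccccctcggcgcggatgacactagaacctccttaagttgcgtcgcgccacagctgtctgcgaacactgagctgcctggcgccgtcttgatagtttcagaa
The Ets2 window is chr16:95702157-95702456 on the plus strand with 71.7% G and C, and the Gata3 window is chr2:9878551-9878850 on the minus strand with 67.3%. The letters were searched on both strands. For the HMG-box factors they were CTTTGA, which TCF-1 and LEF-1 recognise, and for SOX proteins AACAAT. For RUNX factors they were TGTGGT, and for the zinc fingers of the GATA family the search used AGATAA. For MYB they were CAACTG, for the ETS family CCGGAA, and for Ikaros itself TGGGAA. No matches overlapped in the printed windows. The Gata3 window held 1 ETS match, whose first base lay 203 bases before the start, and 14.9% of 32851 RefSeq windows held such a match. None of the letters was found in the Ets2 window. The 8 factors had 12 windows, which include Tcf7, while no window was found for Ets1. Ikaros letters were found in 4 of the 12, belonging to Lef1 and Sox4, against 25.6% of all windows. Of the Lef1 windows 3 hold them, although 2 of those overlap. RUNX letters were found in 1 of the 12 windows, at 2 places in a window of Runx1. TCF and LEF letters were found in 1 of the 12, at 2 places in a window of Lef1. Of all windows 16.8% and 16% held them at least once. A match describes letters and not binding.

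Intensities were used as deposited, with all arrays at a trimmed mean of 300.2 and array medians between 79.8 and 113.2. Values under 16 were raised to it before log2 was taken, and testing was limited to probe sets over the median of their array on at least 2 arrays, a rule met by 10 of the 11 probe sets of the factors and 7172 in all. The remaining one, 162411_f_at for Myb, lay at 1.7 to 34.7 on tumour arrays, at 2.5 and 25.2 on the IkL/L arrays and at 25.2 and 35.6 on the wild-type arrays, around the floor. Scanner records placed tumour 6 and all thymocyte arrays in chip lot 1 and the other tumours in lot 2, and tumours 4 and 6 and all thymocyte arrays on hybridization day 1. Tumours 1, 2 and 5 were hybridized on day 2, and tumour 3 alone on day 3. Thymocyte markers were bright in all samples, with 9 of 10 listed genes on the array and a summed intensity of 21050 to 27310 on tumour arrays, 28000 to 30790 on IkL/L arrays and 27560 to 31360 on wild-type arrays.

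The threshold for a call was an adjusted p under 0.05 over all 7172 tested probe sets. Tumours against wild-type thymocytes gave 0 of the 10 probe sets of the factors as calls by limma, while 1.88% of all tested probe sets did (72 higher, or 1%, and 63 lower, or 0.878%), and 3 of 10 had an unadjusted p under 0.05 where 15.8% of all did. Between tumours and IkL/L thymocytes 0 of 10 passed, against a background of 1.42% (0.906% higher and 0.516% lower), and 2 of 10 had an unadjusted p under 0.05 against 19.1%. Between IkL/L and wild-type thymocytes 0 of 10 passed, against a background of 0.0139%, and 0 of 10 had an unadjusted p under 0.05 against 3.21%. A comparison of the tumours with the mean of both thymocyte groups was added after seeing the data, since it sets 6 arrays against 4. In it 0 of 10 passed as well, against a background of 6.27% (3.49% higher and 2.79% lower), and 5 of 10 had an unadjusted p under 0.05 against 23.6%. The 450 calls behind that background became 53 with chip lot as a block. They became 1 with hybridization run, a grouping of the arrays made here from their hybridization times, as a block. The median log2 difference over the 10 probe sets was -0.036 between tumours and wild-type thymocytes and -0.16 between tumours and IkL/L thymocytes, beside -0.0063 and -0.052 over all tested probe sets.

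**Figure D1:**
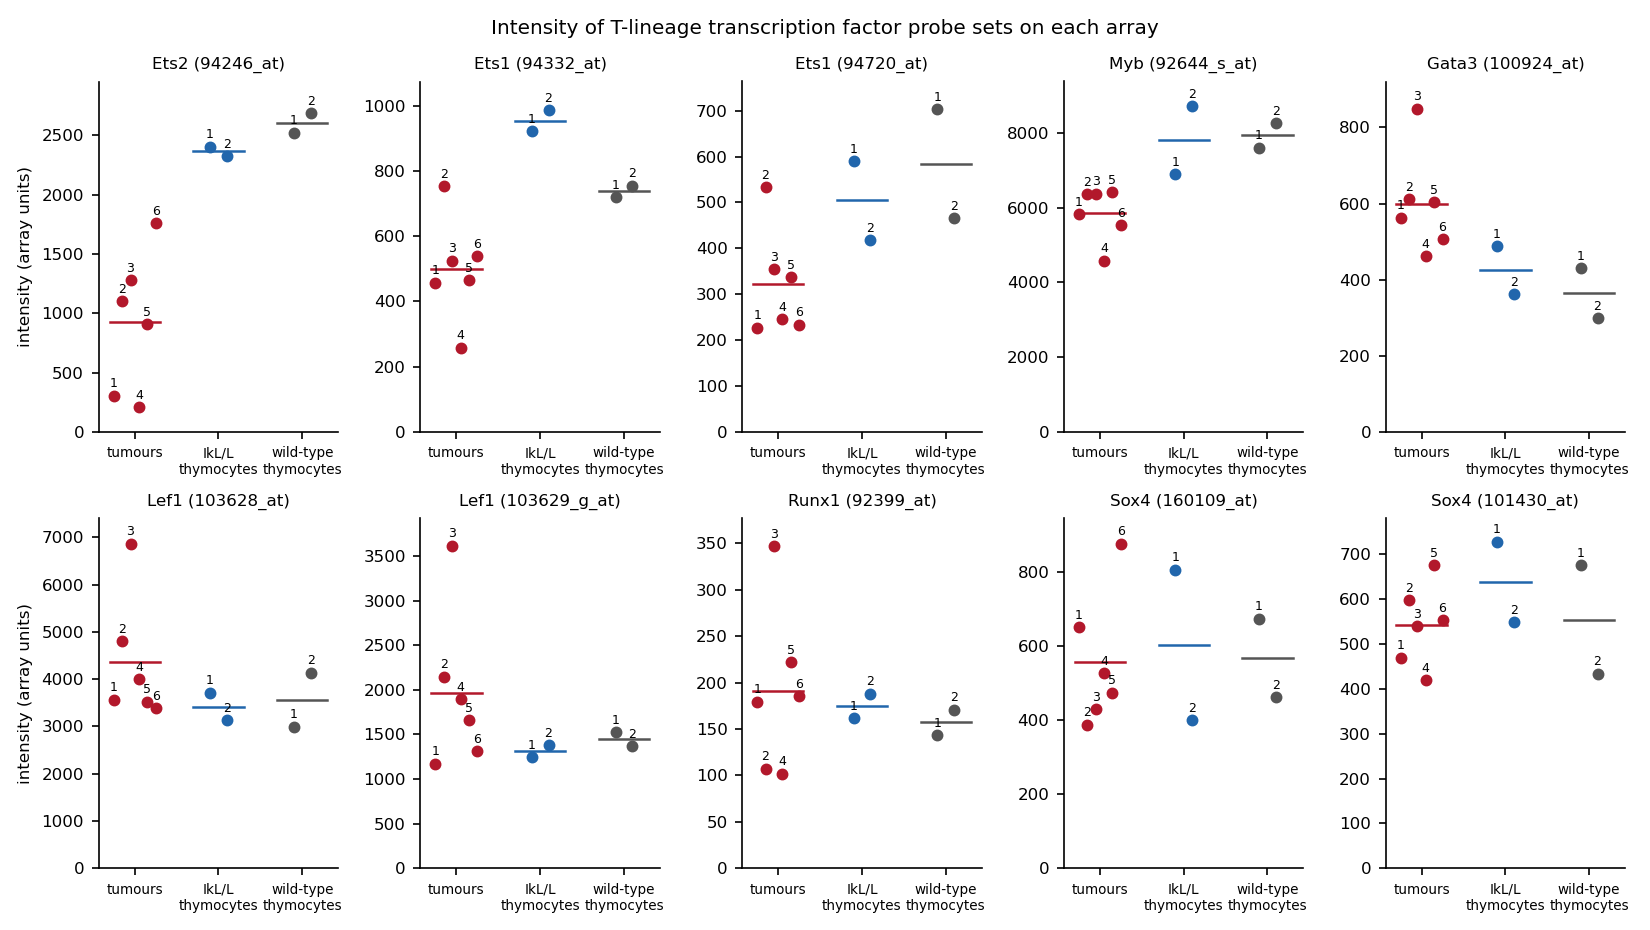
Intensity in array units of each tested probe set on each array, in tumours (red), IkL/L thymocytes (blue) and wild-type thymocytes (grey), with the replicate number beside each point and a line at the group mean. Ets2 lay between 206.6 and 1758.3 in tumours, below the 4 thymocyte arrays at 2325.7 to 2689.2, and tumour 3 was the highest tumour for Gata3, Lef1 and Runx1.

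Ets2 encodes an ETS factor downstream of Ras and MAP kinase signals that is made in T cells and in macrophages. Its probe set 94246_at had the largest difference of the factors from either thymocyte group. The intensity was 206.6 at the lowest, 1004 at the median and 1758.3 at the highest of 6 tumours, 2404.9 and 2325.7 in IkL/L thymocytes, with 2521.6 and 2689.2 in wild-type thymocytes. All tumours were low and the groups did not overlap. The log2 difference was -1.85 ± 0.72 (SE) between tumours and wild-type thymocytes, a mean 3.61-fold below, with a 95% interval of -3.46 to -0.24 and an adjusted p of 0.245. It was -1.71 ± 0.72 between tumours and IkL/L thymocytes (3.27-fold below, interval -3.32 to -0.099, adjusted p = 0.242). The size of the first difference exceeded that of 97.4% of all tested probe sets, and the spread among the tumours was large as well. The SD of log2 intensity of Ets2 was 1.23 over the 6 tumours, at the 96.6th percentile of all tested probe sets, and 0.091 over the 4 thymocyte arrays, at the 5.28th percentile. The brightest tumour read 8.51 times the dimmest, while the brightest thymocyte array read 1.16 times the dimmest. Against both thymocyte groups, the comparison added after seeing the data, the log2 difference was -1.78 ± 0.57 (adjusted p = 0.0978). Without tumour 6, the tumour with the highest Ets2, it was -2.04 (adjusted p = 0.0471). Of 898 values of the factors in other settings, that was the 1 to pass. Leaving out tumour 6 removes the only tumour in the chip lot of the thymocytes, so lot and group can then not be told apart. Calls over all tested probe sets rose from 450 to 764 without it.

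The position of the tumours in the scanner batches bears on Ets2. Tumour 6, the only tumour in the lot of the thymocytes, read 1.41-fold below the mean of the thymocyte groups, so that within lot 1 the log2 difference from wild-type thymocytes was -0.57. With 1 tumour in that lot, the spread among tumours does not enter this value, and no test of it is given. Within day 1, which held the dimmest tumour and the brightest one, it was -2.11 (interval -4.38 to 0.16, adjusted p = 0.436). In bulk samples, fewer cells of a type and less RNA per cell cannot be told apart. The thymocyte marker sums of tumours 1 and 4, which had the lowest Ets2, were 27310 and 25510, the highest of the tumours. Of 13 myeloid markers on the array out of 14 listed, 10 were tested and 3 rose against wild-type thymocytes, and their summed intensity was 5422 to 9855 in tumours, 2726 to 2812 in IkL/L thymocytes and 2505 to 3250 in wild-type thymocytes, with Itgam at the floor on all thymocyte arrays. The tumours had the higher myeloid sums and the lower Ets2. Among them the myeloid sum was 9855 in tumour 1 and 6233 in tumour 4, and 5422 in tumour 6, which had the highest Ets2. The part of cell composition in the Ets2 values was not tested.

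Ets1, the relative of Ets2 that activates T-cell receptor genes, had lower values in most tumours by both of its probe sets. Probe set 94332_at read 258.2, 495.6 and 753.9 at the lowest, median and highest of the tumours, 922.7 and 986.9 in IkL/L thymocytes, with 720.2 and 755.2 in wild-type thymocytes. All tumours were below both IkL/L arrays, while tumour 2 lay between the wild-type arrays. The log2 difference was -1.002 ± 0.33 from IkL/L thymocytes (interval -1.74 to -0.26, adjusted p = 0.149) and -0.63 ± 0.33 from wild-type thymocytes (1.55-fold below, adjusted p = 0.400). Probe set 94720_at read 226.7, 291.7 and 533.6 at the lowest, median and highest of the tumours, 590.5 and 418.5 in IkL/L thymocytes, with 703.5 and 465.6 in wild-type thymocytes. Tumour 2 again overlapped the thymocytes and the other 5 tumours did not. Its log2 difference was -0.70 ± 0.35 from IkL/L thymocytes (adjusted p = 0.307) and -0.90 ± 0.35 from wild-type thymocytes (1.87-fold below, adjusted p = 0.239). Both probe sets of Ets1 thus pointed the same way in both comparisons, and neither passed.

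Myb, which encodes a factor needed for the survival of double-positive thymocytes, was bright in every sample and varied little. Probe set 92644_s_at read 4576.1, 6089 and 6412.1 at the lowest, median and highest of the tumours, 6898.2 and 8720.0 in IkL/L thymocytes, with 7606.6 and 8257.3 in wild-type thymocytes. All tumours were below all thymocyte arrays, though the highest tumour was close to the lower IkL/L array. The log2 difference was -0.45 ± 0.21 from wild-type thymocytes (1.37-fold below, interval -0.91 to 0.0083, adjusted p = 0.327) and -0.42 ± 0.21 from IkL/L thymocytes (interval -0.88 to 0.039, adjusted p = 0.298). The SD over the tumours was 0.19, at the 7.63rd percentile of all tested probe sets. Ets2 and Myb were the 2 of 10 probe sets whose tumours did not overlap any thymocyte array, both on the lower side. Over all tested probe sets 10.8% had no overlap, 5.45% being higher and 5.33% lower in tumours.

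Gata3, a zinc-finger factor needed at commitment and again for the CD4 lineage, had the highest positive log2 difference from wild-type thymocytes. Its probe set 100924_at read 461.1, 583.3 and 849.3 at the lowest, median and highest of the tumours, 488.3 and 361.4 in IkL/L thymocytes, with 429.4 and 298.9 in wild-type thymocytes. All tumours were above both wild-type arrays, and tumour 4 was below 1 of the IkL/L arrays. The log2 difference was 0.71 ± 0.27 from wild-type thymocytes (1.64-fold above, interval 0.12 to 1.31, adjusted p = 0.227) and 0.48 ± 0.27 from IkL/L thymocytes (1.40-fold above, interval -0.11 to 1.08, adjusted p = 0.349). Hybridization runs were formed here from the recorded times, a gap of over 10 minutes starting a new run. With run as a block, the difference was 0.17 from wild-type thymocytes. It was -0.32 from IkL/L thymocytes, a value that no run gives directly, since no run held both a tumour and an IkL/L array and the wild-type arrays alone link them. Ets2, Myb and Gata3 were the 3 of 10 probe sets without overlap between tumours and wild-type arrays, 1 higher and 2 lower, where 17.9% of all tested probe sets had none, 9.16% higher and 8.76% lower. Against the IkL/L arrays they were Ets2, Myb and 94332_at of Ets1, again 3 of 10 and all lower, where 22.5% of all tested probe sets had none, 10.4% higher and 12.1% lower.

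**Figure D2:**
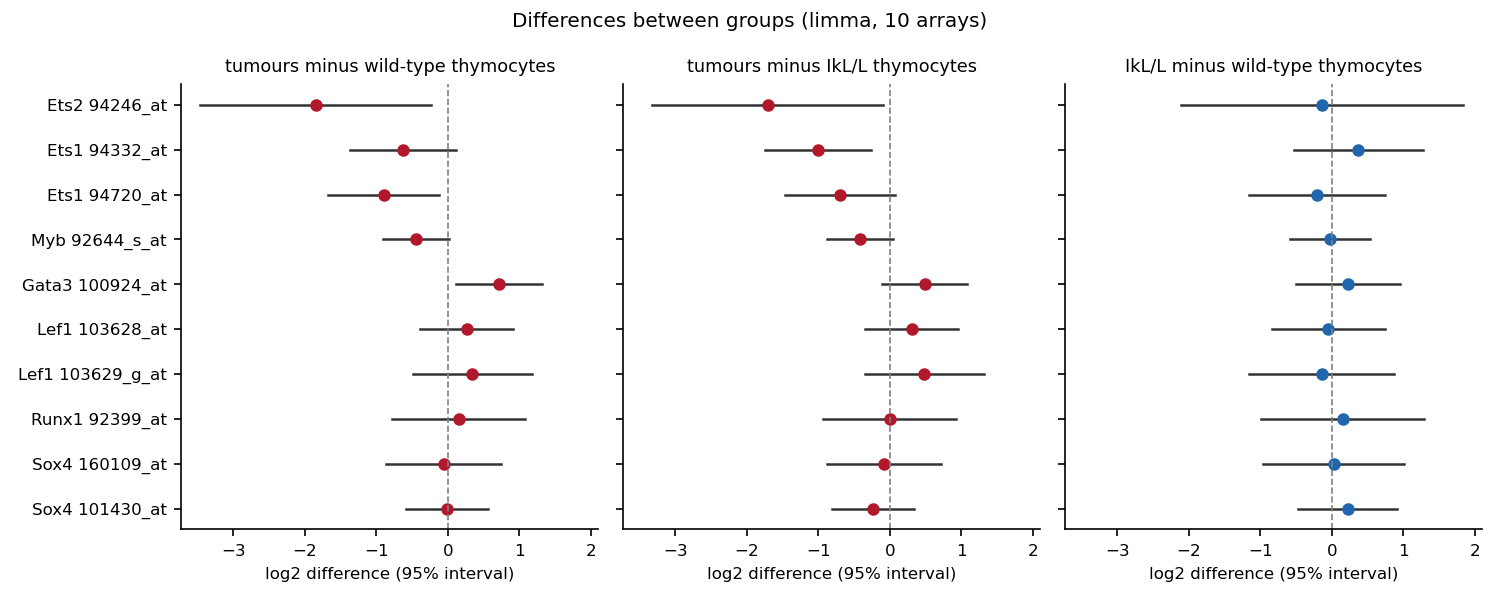
Log2 differences (points) with 95% intervals (lines) of each probe set from limma over 10 arrays, for tumours minus wild-type thymocytes, tumours minus IkL/L thymocytes and IkL/L minus wild-type thymocytes. The Ets2 point is farthest from 0 in both tumour panels, at -1.85 and -1.71, with the longest interval, and all 10 intervals of the third panel hold 0.

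Lef1, whose product cooperates with TCF-1 in double-positive thymocytes, was highest in tumour 3 by both of its probe sets. Probe set 103628_at read 3388.2, 3786 and 6860.6 at the lowest, median and highest of the tumours, 3714.7 and 3125.9 in IkL/L thymocytes, with 2996.0 and 4138.7 in wild-type thymocytes. Tumours and thymocytes overlapped, with tumour 3 highest and tumour 2 next. Its log2 difference was 0.26 ± 0.29 from wild-type thymocytes (interval -0.39 to 0.91, adjusted p = 0.732) and 0.31 ± 0.29 from IkL/L thymocytes (interval -0.34 to 0.96, adjusted p = 0.570). Probe set 103629_g_at read 1172.9, 1778 and 3617.1 at the lowest, median and highest of the tumours, 1247.1 and 1377.8 in IkL/L thymocytes, with 1523.9 and 1367.0 in the wild type, and it put tumours 3 and 2 in the same places. Its log2 difference was 0.34 ± 0.37 from wild-type thymocytes and 0.48 ± 0.37 from IkL/L thymocytes (adjusted p = 0.724 and 0.481). Tumour 3 exceeded the thymocyte group mean 1.98-fold by the first probe set and 2.63-fold by the second, and the intervals leave room for a change of either sign in the group.

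Runx1, which encodes the DNA-binding subunit that represses Cd4 at the double-negative stage, was read by 92399_at, at 101.8, 182.4 and 347.0 at the lowest, median and highest of the tumours. It read 161.6 and 188.1 in IkL/L thymocytes, with 143.6 and 170.9 in wild-type thymocytes. Tumours lay on both sides of the thymocytes, with tumours 2 and 4 below all 4 arrays and tumours 3 and 5 above them. The log2 difference was 0.15 ± 0.42 from wild-type thymocytes (interval -0.78 to 1.08, adjusted p = 0.896) and -0.00084 ± 0.42 from IkL/L thymocytes (interval -0.93 to 0.93, adjusted p = 0.9995). The SD over the tumours was 0.66, at the 80.8th percentile, and 0.16 over the thymocyte arrays, at the 20.7th. The interval therefore reached 1.90-fold above and 1.91-fold below IkL/L thymocytes.

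Sox4, an HMG-box factor of immature lymphocytes, had 2 probe sets that ordered the tumours differently. The first, 160109_at, read 388.4, 500.4 and 876.7 at the lowest, median and highest of the tumours, 806.5 and 400.9 in IkL/L thymocytes, with 674.5 and 462.6 in wild-type thymocytes. The second, 101430_at, read 418.9, 546.6 and 675.3 at the lowest, median and highest of the tumours, 728.0 and 547.8 in IkL/L thymocytes, with 675.0 and 433.4 in wild-type thymocytes. Groups overlapped by both. Tumour 6 was highest by the first probe set and tumour 5 by the second, and tumour 2 was lowest by the first and tumour 4 by the second. Log2 differences from wild-type thymocytes were -0.058 ± 0.36 and -0.013 ± 0.26 (adjusted p = 0.957 and 0.989), with intervals of -0.86 to 0.75 and -0.58 to 0.55. From IkL/L thymocytes they were -0.084 ± 0.36 and -0.24 ± 0.26 (adjusted p = 0.920 and 0.620).

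In thymocytes of the IkL/L and wild-type mice, the 95% interval of every probe set of the factors held 0. Between IkL/L and wild-type thymocytes the log2 differences ran from -0.20 for 94720_at of Ets1 to 0.37 for its other probe set, 94332_at (0.37 ± 0.41, interval -0.53 to 1.28, adjusted p = 0.999). Ets2 had -0.14 ± 0.89 with an interval of -2.11 to 1.84, because the fit shares the tumours' spread, and Gata3 had 0.23 ± 0.33. Ets2 on the lower side and 94332_at of Ets1 on the higher side had no overlap between the groups, 2 of 10, where 39.4% of all tested probe sets had none with 2 arrays on each side, 21.2% higher and 18.2% lower. The median size of the difference was 0.15 over the 10 probe sets and 0.24 over all tested ones, and 2 arrays per group limit the precision.

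**Figure D3:**
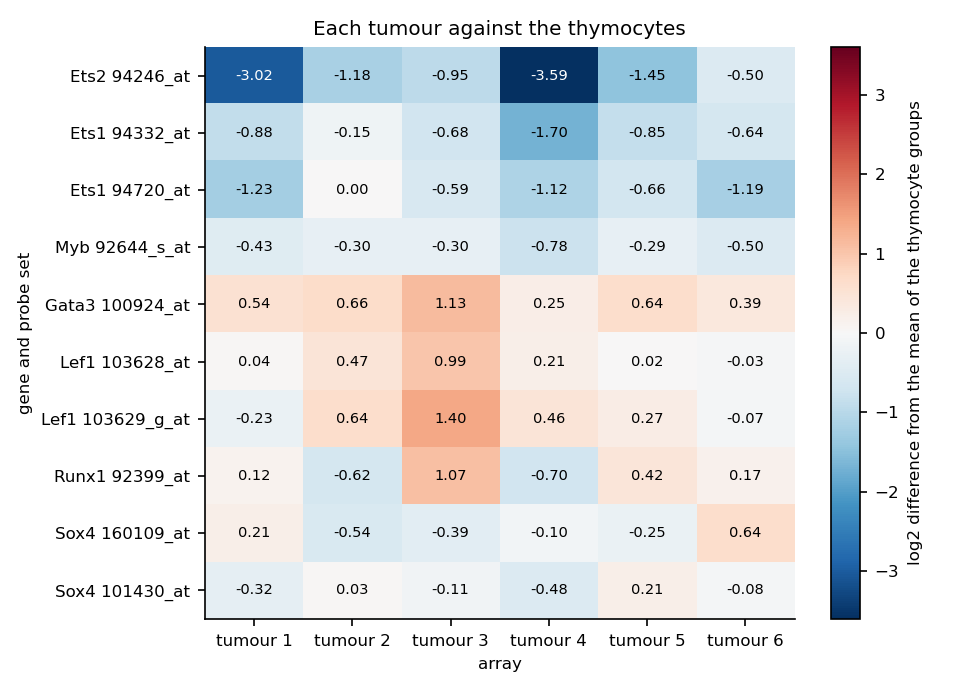
Log2 difference of each tumour (columns) from the mean of the IkL/L and wild-type thymocyte groups for each probe set (rows), red above and blue below, with the value in each cell. Ets2 ran from -3.59 in tumour 4 to -0.50 in tumour 6, and Gata3 was positive and Myb negative in all 6 tumours.

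The tumours differed from one another in which factors were high. Ets2 was 8.11-fold below the thymocyte mean in tumour 1 and 12.0-fold below it in tumour 4, but 1.94-fold below in tumour 3 and 2.26-fold below in tumour 2. Tumour 4 was the lowest tumour in 6 of the 10 probe sets and in 5 of the 7 main ones, while it was the lowest in 23.2% of all tested probe sets. Those 5 main probe sets were of Gata3, Ets1, Ets2, Runx1 and Myb. Tumour 3 was the highest in 4 of 10, namely Gata3, both of Lef1 and Runx1, against 14.7% of all tested probe sets, and it read 2.19-fold above the thymocyte mean for Gata3 and 2.10-fold above it for Runx1. Tumour 3 was also the only array of day 3, so that its tumour and its day cannot be told apart. The order of the tumours was not the same for all factors, since tumour 2 had the highest Ets1 by both probe sets and the lowest first Sox4 probe set.

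**Figure D4:**
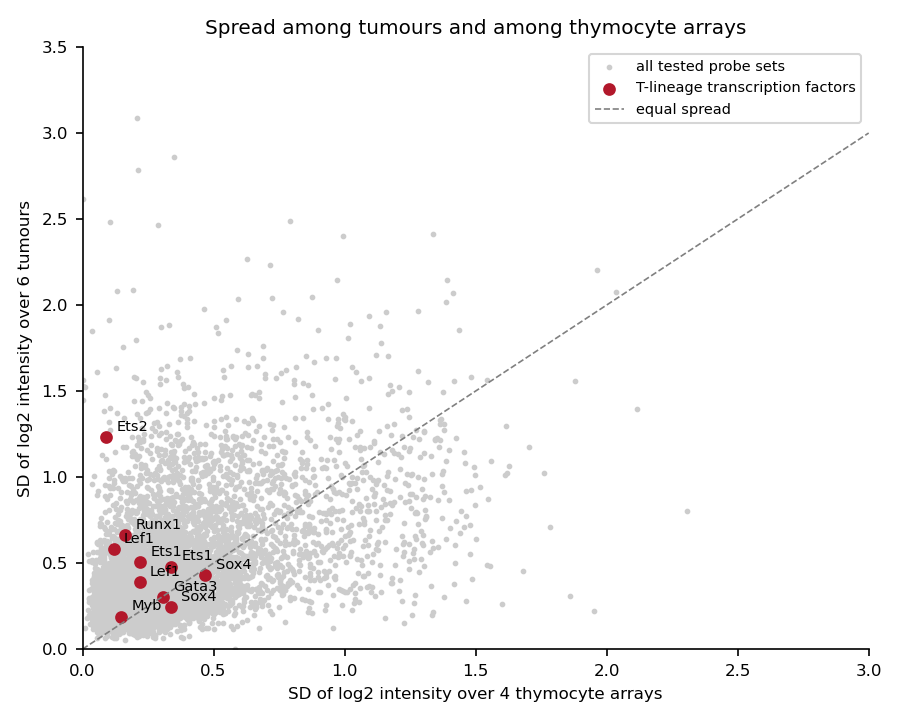
SD of log2 intensity over the 6 tumours (vertical) against the SD over the 4 thymocyte arrays (horizontal) for all 7172 tested probe sets in grey and the 10 of the factors in red, with a dashed line of equal spread. Ets2 stands at 1.23 against 0.091, and the medians over all tested probe sets are 0.39 and 0.28.

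Genes with the pattern most like that of each factor were found by the Pearson correlation of log2 intensity over the 10 arrays among 5471 other genes, with the best 2 kept for each. These values describe arrays that share the step between tumours and thymocytes, so the correlation over the 6 tumours is set beside each. The 6 tumours are among the 10 arrays by which the genes were picked, so that second value is no separate check. How high the best of 5471 genes would reach without any relation was not tested. For Ets2 they were Ptpre, a receptor-type tyrosine phosphatase gene, at 0.97 over the 10 arrays and 0.96 over the tumours, and Crybg1, at 0.97 and 0.96. For Ets1 they were Sesn1, a stress-response gene, at 0.95 and 0.91, and Xbp1, a factor of the unfolded protein response, at 0.94 and 0.95. For Myb they were Tollip, an adaptor of Toll-like receptor signalling, and Fmnl1, a formin, both at 0.93 over the 10 arrays and at 0.90 and 0.91 over the tumours. For Gata3 the nearest were Pccb, a mitochondrial carboxylase subunit, at 0.91 and 0.89, and the protease Ctss. Ctss, which is also among the myeloid markers listed here, had 0.88 over the 10 arrays but 0.53 over the tumours. Lef1 was most like Pdlim4 and Cipc (0.94 and 0.91 over the 10 arrays, 0.94 and 0.93 over the tumours). Runx1 was most like Ptbp2, a splicing regulator, and Clip1 (0.92 and 0.89 over the 10 arrays, 0.96 and 0.94 over the tumours), and Sox4 like Fam126b and Itfg1 (0.88 and 0.87 over the 10 arrays, 0.87 and 0.98 over the tumours).

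Of the relatives and cofactors of these factors, the tested genes were other ETS, TCF, GATA, MYB and SOX genes and partners such as Cbfb and Ctnnb1, with no other RUNX gene among them, and none passed in any of these comparisons. Of 34 listed genes 26 had a probe set, 17 were tested, and 0 of the 17 passed by limma when tumours were set against the wild type, with a median log2 difference of -0.15. The smallest unadjusted p there was that of Sox13 (0.0838), which read 692 ± 136 in tumours and 499.5 ± 7.35 in wild-type thymocytes (SD, n = 6 and 2; log2 difference 0.45, adjusted p = 0.398). Gabpb1 and Elf1, an ETS partner and an ETS factor of T cells, had -0.47 and -0.58 (adjusted p = 0.449 and 0.486). Between tumours and IkL/L thymocytes the median was -0.16, and Gabpa, an ETS factor that activates Il7r, had -0.60 and Etv4 had -0.86 (adjusted p = 0.175 for both), while Fli1 had 0.65 (adjusted p = 0.245). Fli1 also had the smallest unadjusted p between IkL/L and wild-type thymocytes, with 117 ± 7.99 in IkL/L and 210 ± 23.6 in wild-type thymocytes (log2 difference -0.84, adjusted p = 0.999), followed by Tcf7l2 (1.03) and Gabpa (0.42).

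Genes known as targets of these factors in T cells were read from a list chosen with earlier results of these data known. Their share of calls, set beside that of all probe sets, is therefore no test of targets as a class. Of 27 listed genes 24 had a probe set and 23 were tested, and against IkL/L thymocytes 1 rose and 4 fell (21.7% of them, beside 1.42% of all tested probe sets), with a median log2 difference of -0.59. Myc read 653 ± 111 in tumours and 204 ± 41.9 in IkL/L thymocytes (SD, n = 6 and 2; 3.19-fold, adjusted p = 0.0120). Those that fell were Ccr7, a chemokine receptor of maturing thymocytes (log2 difference -3.32 at adjusted p = 0.0151, where the floor holds 1 of the tumours), the recombinase genes Rag1 (3.46-fold, adjusted p = 0.0211) and Rag2 (8.71-fold, adjusted p = 0.0374), and Bcl2l1, which protects double-positive thymocytes from death (3.37-fold, adjusted p = 0.0211). The same 5 genes, 1 rising and 4 falling, passed against wild-type thymocytes, a comparison that uses the same tumours. Against IkL/L thymocytes the 102 calls over all tested probe sets became 17, 42, 21 and 0 with lot, day, module or run as a block. None of the 5 genes thus passed against IkL/L thymocytes with run as a block. No run held both a tumour and an IkL/L array, so in that fit only the wild-type arrays link them. It therefore cannot show whether the calls depend on the run. Against wild-type thymocytes the 135 calls became 33, 52, 49 and 9 with these blocks. Against both thymocyte groups 2 rose and 9 fell (47.8%, beside 6.27%), and the genes passing only in that comparison were Ptcra upwards (2.52-fold) and Cd4 (6.02-fold), Cd5 (2.73-fold), Bcl2 (2.38-fold), Cd247 (2.02-fold) and Cd8a (3.87-fold) downwards. Among 23 tested targets none passed between IkL/L and wild-type thymocytes by limma. The smallest unadjusted p there was that of Lat, an adaptor of receptor signalling (0.0492, log2 difference 0.61, adjusted p = 0.999), before Il2ra (-0.82) and Bcl2 (-0.37), which had another probe set of opposite sign.

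Other regulators of T-cell development also held calls, in a list chosen in the same way, so that their share is no test either. Of 18 listed genes 14 had a probe set and 12 were tested. Against IkL/L thymocytes 1 rose and 2 fell (25%, beside 1.42%). The Notch target Hes1 read 824 ± 114 in tumours and 231 ± 38.0 in IkL/L thymocytes (SD, n = 6 and 2; 3.57-fold, adjusted p = 0.00567). Egr2, induced by T-cell receptor signals, read 88.1 ± 32.5 in tumours and 513 ± 105 in IkL/L thymocytes (6.08-fold below, adjusted p = 0.00822). Nfatc3, which encodes a calcineurin-dependent factor, read 185 ± 19.0 in tumours and 397 ± 29.8 in IkL/L thymocytes (2.15-fold below, adjusted p = 0.0211). The same 3 genes passed against wild-type thymocytes, and Satb1 (2.53-fold below) and Egr1 (2.38-fold below) passed against both groups together. With run as a block none of the 3 genes passed against IkL/L thymocytes, since 0 of all tested probe sets did. In that fit only the wild-type arrays link tumours and IkL/L arrays, so it cannot show whether these calls depend on the run. Between IkL/L and wild-type thymocytes none of the 12 passed by limma and none had an unadjusted value under 0.05. The 3 with the smallest were Hes1, Nfatc2 and Foxp1, with log2 differences of 0.37, 0.51 and 0.36.

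**Figure D5:**
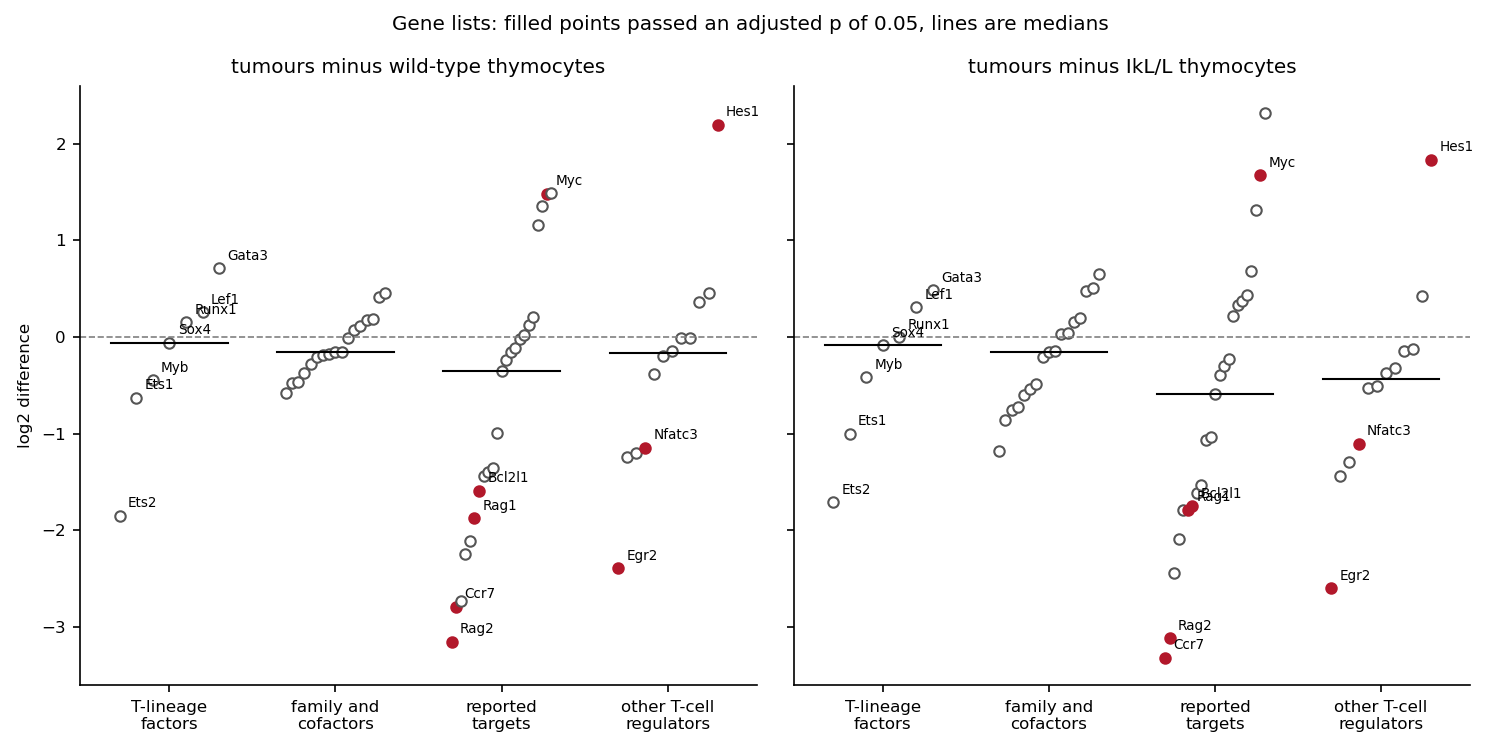
Log2 differences of the tested genes of 4 lists, for tumours minus wild-type thymocytes (left) and tumours minus IkL/L thymocytes (right), with filled points for an adjusted p under 0.05 and lines at the list medians. None of the 7 factors or 17 relatives is filled, while 5 of 23 targets and 3 of 12 other regulators are in each panel. The lists were chosen with earlier results of these data known, and no batch block enters these values.

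Markers of other cell types moved between the groups beside these values. The summed intensity of 14 stromal and endothelial markers was 2468 to 4105 in tumours, 2116 to 3215 in IkL/L thymocytes and 1588 to 2089 in wild-type thymocytes. That of 9 thymic epithelial markers on the array out of 10 listed was 489.2 to 1060 in tumours, 1567 to 5508 in IkL/L thymocytes and 3860 to 5354 in wild-type thymocytes, with Krt14 at the floor on all tumour arrays and on both wild-type arrays. That of 7 B-cell markers on the array out of 8 listed was 1738 to 7905 in tumours, 5252 to 6473 in IkL/L thymocytes and 5065 to 7661 in wild-type thymocytes. Of the tested markers 3 of 10 stromal ones rose, 4 of 5 epithelial ones fell and 0 of 6 B-cell ones passed when tumours were set against the wild type, and 0 of 9 thymocyte markers passed. Against both thymocyte groups together 2 of the 9 thymocyte markers and 1 of the 6 B-cell markers fell, and 6 of 10 myeloid and 5 of 10 stromal ones rose. Their part in the values of the factors was not tested.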

How the data were processed

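The authors deposited 1 table of probe-set intensities for 10 arrays, per the file headers of the MG_U74Av2 type. The software that made the intensities is not given in the sources used here. Each array had the same trimmed mean (2% of values removed at either end), so the table was not scaled again, and 0 columns lay outside the 10 samples. Chip lot, hybridization day and fluidics module came from the scanner records. Runs were formed here from the recorded hybridization times, a gap of over 10 minutes starting a new run.

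Values under the 20th percentile, 16, were raised to it, log2 was taken, and control probe sets were removed. Of 12488 probe sets 10855 had 1 symbol, 396 several and 1237 none. limma 3.58.1 in R 4.3.3 fitted 1 mean per group over 10 arrays with eBayes (degrees of freedom 7 residual, 3.17 prior). Within each comparison, p-values of all tested probe sets were adjusted together (Benjamini-Hochberg). A list gene is read by its probe set with the highest mean, and folds come from mean log2 differences. List genes were named if they passed, or as the 3 with the smallest unadjusted p where fewer than 3 did. Alternatives were another treatment of low values, filters, quantile normalization, an intensity trend, batches as blocks and leaving out each array. The members and lists were chosen with earlier results of these data known. Proteins were not analysed here.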

Additional observations from a re-analysis of the deposited data

How the results depend on the processing

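No factor passed between tumours and wild-type thymocytes, tumours and IkL/L thymocytes, or the thymocyte genotypes under any of 23 other settings (0 in each), while 3, 2 and 0 of 10 probe sets had an unadjusted p under 0.05 by limma as reported. Against both thymocyte groups the count was 0 to 1 when single arrays were left out, the 1 being Ets2 without tumour 6. Ets2, both Ets1 probe sets and Myb were lower in tumours than in either thymocyte group in every setting. Ets2 ranged from -2.11 to -0.57 against wild-type thymocytes (adjusted p no lower than 0.134). Against IkL/L thymocytes it ranged from -1.97 to -0.43 (adjusted p no lower than 0.121). The small end of both ranges came from lot 1, where tumour 6 stands alone, so no test of it is given. Of 898 values in other settings 72 had the opposite sign to the report, none of them past the threshold, and the cause was not tested. With chip lot as a block and within lot 1 alone, which give the same values, tumours minus wild-type thymocytes had -0.056 and -0.14 for 103628_at and 103629_g_at of Lef1 and 0.65 and 0.033 for those of Sox4, tumours minus IkL/L thymocytes had -0.0082 and -0.0013 for Lef1, 0.62 for the first Sox4 probe set and 0.089 for Runx1, and tumours minus both groups had -0.032, -0.071 and 0.64 for Lef1 and the first Sox4 probe set. With day as a block and within day 1, the first Sox4 probe set had 0.28, 0.26 and 0.27 against wild-type, IkL/L and both groups, and Runx1 had -0.19 and -0.27 against wild-type and both. With hybridization run as a block, Runx1 had -0.0635 and -0.0779 against wild-type and both, and Gata3 had -0.32 and -0.074 against IkL/L and both. With the same block the first Sox4 probe set had 0.010 against wild-type, and 94720_at of Ets1 had 0.094 between the genotypes. With module as a block the genotypes differed by -0.0386 for the second Sox4 probe set and by 0.35 and 0.15 for Lef1. With quantile normalization they differed by 0.031 for Lef1 and 0.074 for Myb, and Runx1 had 0.099 against IkL/L, or 0.00869 with the pseudocount. Leaving out single arrays, tumours minus wild-type thymocytes ran from -0.33 to 0.21 and -0.33 to 0.31 for the Sox4 probe sets and from -0.045 to 0.31 for Runx1, and tumours minus IkL/L thymocytes from -0.59 to 0.42 for the first Sox4 probe set and -0.20 to 0.15 for Runx1. Against both groups the ranges were -0.32 to 0.18 and -0.28 to 0.035 for Sox4 and -0.12 to 0.23 for Runx1. Between the genotypes they were -0.48 to 0.53 and -0.096 to 0.54 for Sox4, -0.50 to 0.094 for 94720_at of Ets1, -0.032 to 0.49 for Gata3, -0.28 to 0.19 for 103628_at of Lef1 and -0.20 to 0.14 for Myb. No paired analysis was possible because the labels number no samples across groups. Of all probe sets tested, 135 passed for tumours against the wild type, compared with 33, 52, 49 and 9 when the block was lot, day, module or run, 22 and 26 within lot 1 and within day 1, 77 without the filter, and 14 without wild-type replicate 1, 29 without wild-type replicate 2, 75 without tumour 5 and 221 without tumour 6. Against IkL/L thymocytes 102 passed, against 17, 42, 21 and 0 with these blocks, 8 and 20 within lot 1 and day 1, 161 with quantile normalization, 214 with an intensity trend, and 7 and 23 without IkL/L replicates 1 and 2 and 332 without tumour 6. Against both thymocyte groups 450 passed, against 53, 130, 258 and 1 with these blocks, 65 and 45 within lot 1 and day 1, 294 without the filter, 145 and 169 without IkL/L replicates 1 and 2, 153 and 178 without wild-type replicates 1 and 2, 255 without tumour 5 and 764 without tumour 6.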
